A study of Rattus norvegicus with 6 samples.

Results

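The genes described here encode the matrix metalloproteinases (Mmp), the membrane-anchored metalloproteinases of the ADAM family (Adam), the secreted ADAMTS enzymes and their non-catalytic ADAMTS-like relatives (Adamts, Adamtsl), and the tissue inhibitors of metalloproteinases (Timp). They were chosen by symbol alone, and 61 of the 17089 genes in the deposited table matched: 21 Mmp, 20 Adam, 13 Adamts, 3 Adamtsl and 4 Timp genes. Neonatal rat ventricular myocytes, primary heart muscle cultures from Sprague Dawley rats aged postnatal day 1 to 3, were given an adenovirus on the day of isolation, and RNA was taken 4 days after gene transfer. The GFP group (3 libraries) received Ad-GFP and the Tbx18 group (3 libraries) received Ad-Tbx18-IRES-GFP, so both groups carried an adenovirus and GFP. Serum was 10% at first and was lowered to 2% on day 3 in all cultures. The study asked how forced expression of Tbx18, a developmental T-box gene of the sinus node region, alters ventricular myocytes. Neither the promoter of the transgene nor whether replicates were separate isolations is given in the labels; p-values therefore reflect the spread among these 6 libraries, part of which may be technical.

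Matrix metalloproteinases are zinc-dependent enzymes that cleave collagens, proteoglycans and other matrix proteins. They are made as inactive precursors that lose a propeptide before they can cut. ADAM proteins cut other membrane proteins close to the cell surface and so release growth factors and receptor fragments, a process called shedding, and ADAMTS enzymes process procollagen or cut the large proteoglycans versican and aggrecan. TIMP proteins bind the active site of these enzymes, each with its own range of targets. In the heart some of these genes are known from stromal cells and from the remodelling of matrix during development and after injury.

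Libraries held 17074483 to 19800300 recovered reads assigned to genes. Values are normalized counts, that is, reads divided by the authors' size factor for that library. Tbx18 itself was at 268 to 312 normalized counts in GFP and 5937 to 6236 in Tbx18, so every library matched its label. Of 9 cardiomyocyte markers in the table none was at 0 in every library and 7 were called lower in Tbx18, with a summed level of 894500 to 1000713 in GFP and 447379 to 465712 in Tbx18. Of 8 fibroblast markers none was at 0 in every library and 7 were called higher, with a summed level of 239314 to 278871 in GFP and 514008 to 597956 in Tbx18. The exception, Col1a2, was at 2.30 to 26.3, beside 183972 to 411072 for Col1a1 in the same libraries. Why Col1a2 was so low was not tested, and a low count here does not by itself show that a gene is not expressed. In bulk RNA, a change in the number of cells of a type and a change in RNA per cell cannot be told apart. Markers of other cell types moved as well: 4 of 7 for smooth muscle and pericytes were called higher (Pdgfrb 2.80-fold), 3 of 4 for epicardium and mesothelium (list median log2 fold change 1.20), 3 of 7 endothelial markers with 1 lower (Kdr), and 1 of 2 tested Schwann cell markers. Over all 11230 genes tested the shares called were 22.5% higher and 23.5% lower. The part of these marker lists in the results below was not tested.

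A gene was tested where its mean over the 6 libraries was at least 10 normalized counts, and called where limma's adjusted p was under 0.05. Of the 61 genes, 38 were tested. Of these, 17 were called higher in Tbx18 (44.7%), 5 lower (13.2%) and 16 were not called. Among all 11230 genes tested 46.0% were called, 22.5% higher and 23.5% lower. For 21 of the 38 every Tbx18 library was above every GFP library, and for 5 every one was below; over all genes tested 57.2% had such separate groups, 28.6% higher and 28.6% lower. The median log2 fold change of the 38 genes was 0.38, beside 0.01 for all genes tested. With libraries scaled to equal recovered reads, which raises the median of all genes to 0.27, 28 were higher and 2 lower, beside 4777 and 1350 of the 11224 genes tested in that scaling. None of the 22 called genes changed direction under any alternative run, and 15 of them stayed called under each alternative in which they were tested.

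**Figure D1:**
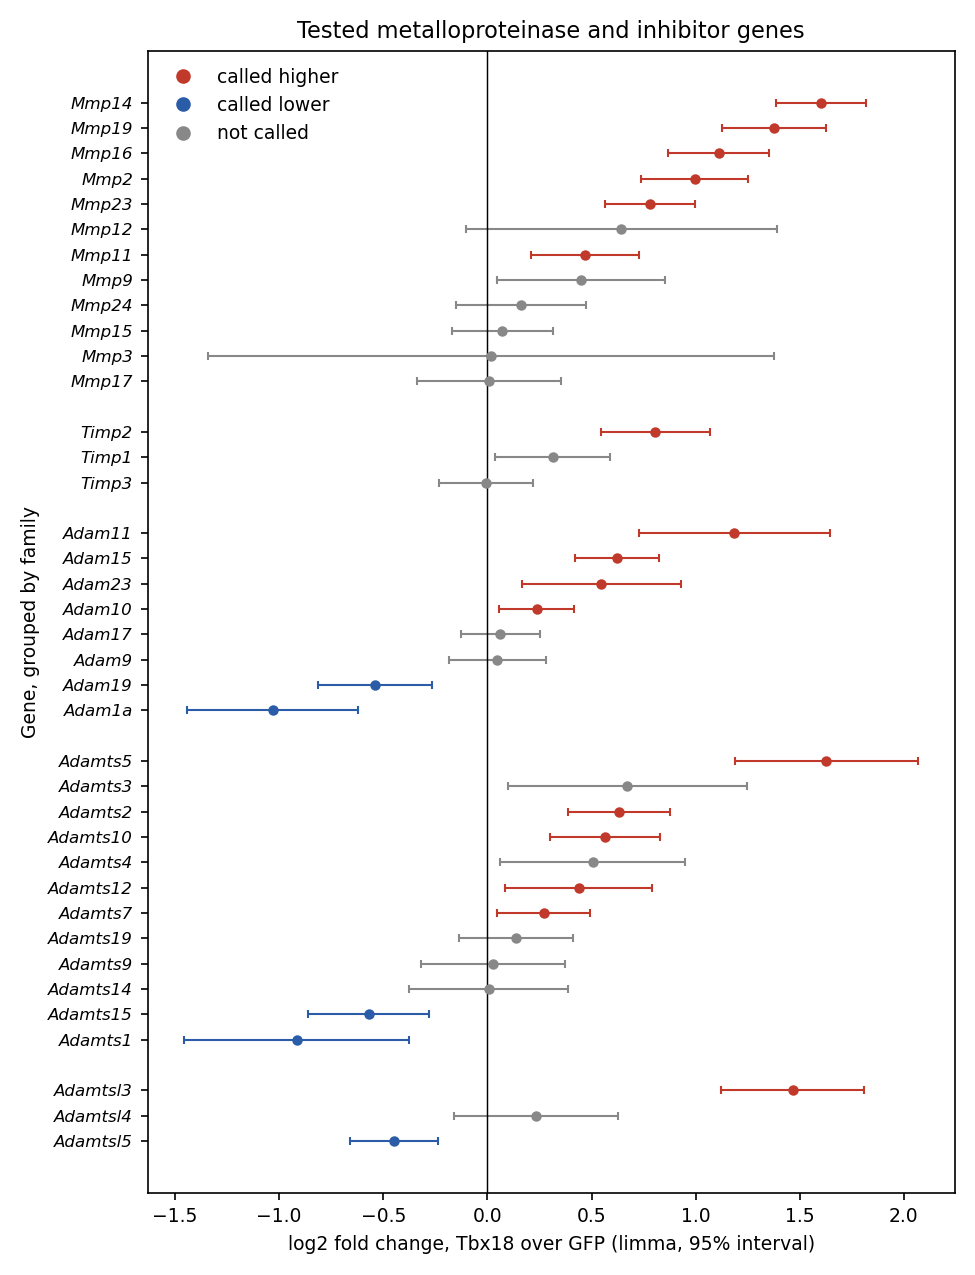
Log2 fold change (Tbx18 over GFP, x axis) of the 38 tested genes (y axis, grouped by family), with the 95% interval from limma; red genes were called higher, blue lower and grey not called. The 12 Mmp genes held no blue point, and the 8 Adam and 12 Adamts genes held points of both colours.

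The Mmp family had 6 higher (50%), 0 lower and 6 not called of 12 tested, beside 22.5% higher and 23.5% lower of all genes tested. The higher calls were 3 of 6 membrane-anchored genes, 1 of 2 gelatinases and 2 of 3 tested other secreted enzymes. Of the group kept for Mmp3 and Mmp10, stromelysin-1 and stromelysin-2, only Mmp3 was tested, and it was not called. Mmp11, stromelysin-3, was counted among the other secreted enzymes. Mmp14 encodes MT1-MMP, a membrane-anchored collagenase that also activates pro-MMP2 at the cell surface. The GFP libraries held 2466, 2059.9 and 2225 normalized counts of it, and the Tbx18 libraries 6863, 6229 and 7406. The lowest Tbx18 library was well above the highest GFP library, and the mean rose 3.04-fold from 2250.4 ± 204 to 6832 ± 589 (SD, n = 3 per group; limma log2 fold change 1.60, SE 0.10, adjusted p = 6.17e-06). Its partner Mmp2, gelatinase A, was at 2867, 3371 and 2556 in GFP and at 5853, 5269.6 and 6358 in Tbx18, again without overlap. That was a 1.99-fold rise (limma log2 fold change 1.00, SE 0.11, adjusted p = 0.000131).

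Mmp16, which encodes the membrane-anchored MT3-MMP, was at 299, 315 and 274 in GFP and at 590.0, 640.4 and 689.9 in Tbx18. Every Tbx18 value was above every GFP value, a 2.16-fold rise (limma log2 fold change 1.11, SE 0.11, adjusted p = 5.56e-05). Mmp23, an enzyme held in the membrane by its N-terminal part, went from 1072, 1130.0 and 910.2 to 1819.8, 1756 and 1747 (limma log2 fold change 0.78, SE 0.10, adjusted p = 0.000196). The other 3 membrane-anchored genes did not pass the test and their groups overlapped. Mmp15 had a log2 fold change of 0.07 (95% interval -0.17 to 0.31), Mmp17 of 0.01 (-0.34 to 0.35) and Mmp24 of 0.16 (-0.15 to 0.48). The upper ends of these 3 intervals lie below the lower ends for Mmp14, 1.38, Mmp16, 0.87, and Mmp23, 0.56.

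Among secreted enzymes, Mmp19, which cleaves basement membrane proteins, was at 463, 363 and 382 in GFP and at 1055, 989 and 1079.6 in Tbx18. The groups were far apart, with a 2.59-fold rise (limma log2 fold change 1.38, SE 0.11, adjusted p = 2.10e-05). Mmp11, stromelysin-3, which is activated by furin inside the cell, went from 557, 445 and 460.3 to 718, 618 and 684 (limma log2 fold change 0.47, SE 0.12, adjusted p = 0.00853). Mmp9, gelatinase B, known from leukocytes, was at 85.1, 74.1 and 70.2 in GFP and at 91.1, 101 and 123 in Tbx18. Its groups did not overlap, but it did not pass the test (limma log2 fold change 0.45, SE 0.18, adjusted p = 0.0661, up to 0.228 over the alternatives). It was called with equal recovered reads, with upper-quartile scaling and without GFP replicate 1.

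**Figure D2:**
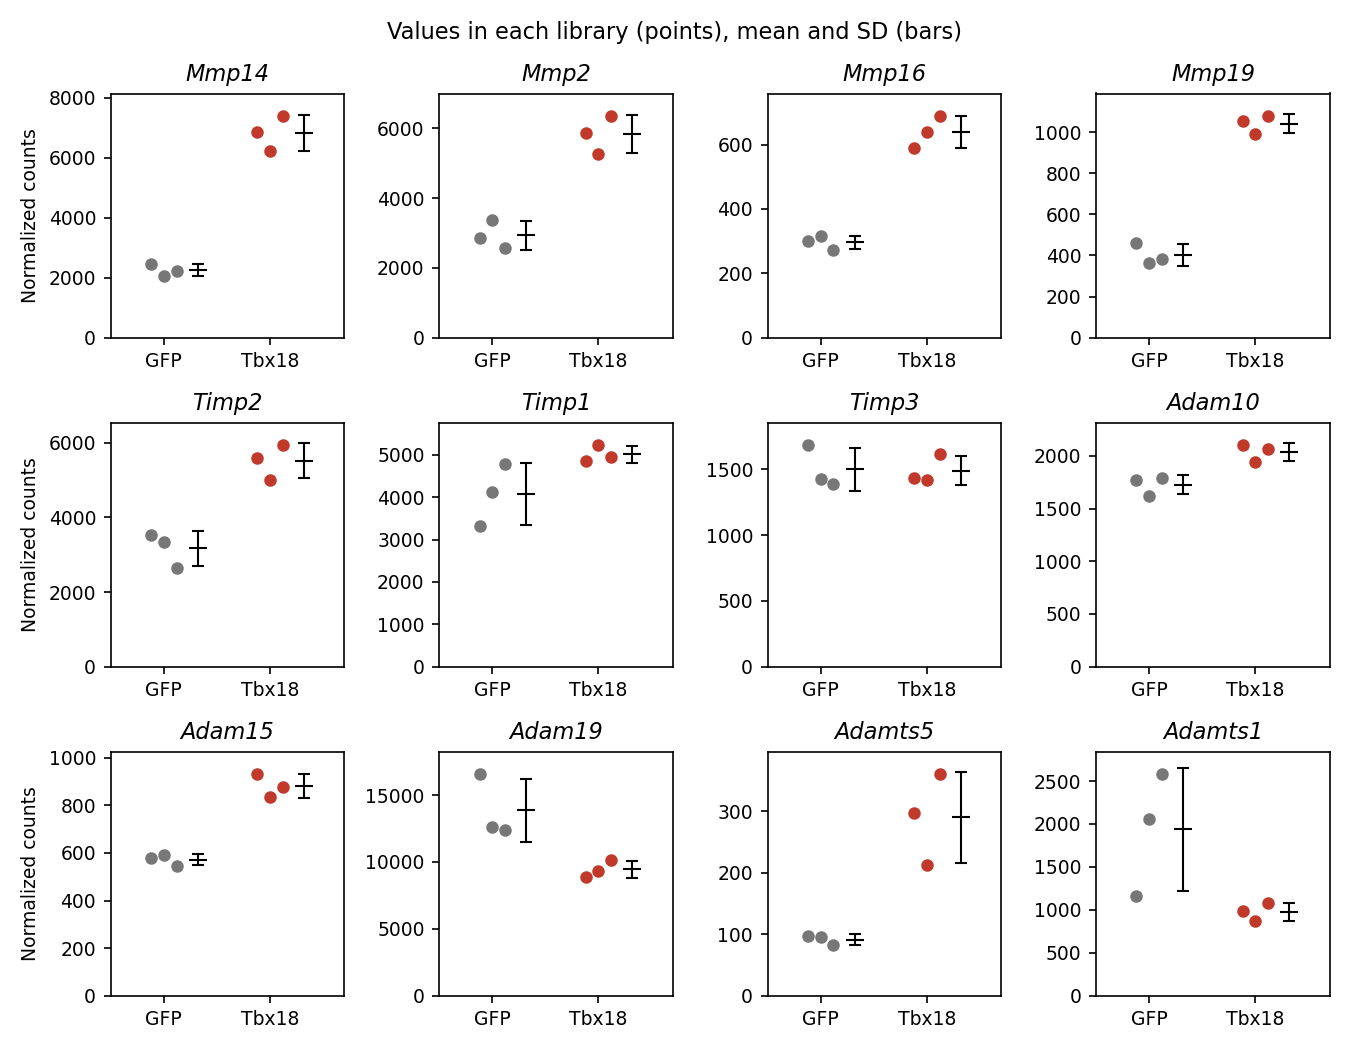
Normalized counts (y axis, from 0) of 12 genes in each library, grey for GFP and red for Tbx18, with the mean and SD of each group as black bars. The GFP and Tbx18 points are separate for Mmp14, Mmp2, Mmp16, Mmp19, Timp1, Timp2, Adam10, Adam15 and Adamts5 with Tbx18 above, separate for Adam19 and Adamts1 with Tbx18 below, and mixed for Timp3.

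A run of 9 Mmp genes lies together on rat chromosome 8 in the RefSeq annotation (GRCr8), in the order Mmp13, Mmp12, Mmp3, Mmp1, Mmp10, Mmp8, Mmp27, Mmp20 and Mmp7, with 1 other protein-coding gene among them, between Mmp12 and Mmp3. Genes of this run encode collagenases, stromelysins, matrilysin and macrophage elastase, and several are known to be switched on by growth factors and cytokines through AP-1, the dimer of Fos and Jun proteins. Only Mmp12 and Mmp3 reached a mean of 10 normalized counts, and none of the 9 was called. The other 7 had at most 4 reads in any library. The stretches from 110 to 41 bases before each start site are shown because 7 of the 9 carry the letters TGANTCA there, in capitals. These letters, with N for any base, were searched as a loose form of the AP-1 motif. In the stretches shown they lie 61 to 96 bases before the start site. Mmp1 also holds them 242 bases before its start site, outside the stretch. Within the stretches the middle base is A in Mmp20, whose match is the farthest, and G or C in the others. All stretches are on the plus strand, 5′ to 3′, from RefSeq.
Mmp13, chr8:12782719-12782788: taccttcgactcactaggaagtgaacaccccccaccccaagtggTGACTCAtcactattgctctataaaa
Mmp12, chr8:12866542-12866611: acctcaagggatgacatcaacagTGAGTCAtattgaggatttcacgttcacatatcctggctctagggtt
Mmp3, chr8:12925171-12925240: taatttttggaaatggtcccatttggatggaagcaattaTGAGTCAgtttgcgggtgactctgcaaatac
Mmp1, chr8:12943343-12943412: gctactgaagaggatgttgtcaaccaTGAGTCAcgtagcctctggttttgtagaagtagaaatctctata
Mmp10, chr8:12974597-12974666: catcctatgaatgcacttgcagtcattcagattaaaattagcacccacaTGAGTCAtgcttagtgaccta
Mmp20, chr8:13074169-13074238: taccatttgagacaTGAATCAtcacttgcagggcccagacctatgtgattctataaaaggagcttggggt
Mmp7, chr8:13132933-13133002: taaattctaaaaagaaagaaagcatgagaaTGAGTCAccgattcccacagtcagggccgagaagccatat
The same stretches of Mmp8 and Mmp27 are shown beside them because these 2 genes hold no such letters in the 300 bases searched, which run from 250 before to 50 after the start site.
Mmp8, chr8:13008780-13008849: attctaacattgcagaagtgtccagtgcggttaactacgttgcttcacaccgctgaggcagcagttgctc
Mmp27, chr8:13030642-13030711: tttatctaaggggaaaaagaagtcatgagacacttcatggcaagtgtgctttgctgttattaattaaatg

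The pattern TGANTCA, with any middle base, reads the same on both strands and was in 7.33% of 27457 promoters of that length, taken once per symbol. Mmp12, Mmp3 and 5 of the genes with at most 4 reads all hold these letters. Mmp12, macrophage elastase, was at 439, 742 and 230.1 normalized counts in GFP and at 586, 656 and 747 in Tbx18. The GFP libraries spread more than 3-fold, the lower 2 Tbx18 values lay within their range, and the gene was not called (log2 fold change 0.64, 95% interval -0.10 to 1.39, limma adjusted p = 0.141). Without GFP replicate 2 the log2 fold change was 1.05 and called (adjusted p = 0.0113), and without GFP replicate 3 it was 0.21 (adjusted p = 0.447). Mmp3, stromelysin-1, was at 3.19, 12.3 and 16.1 in GFP and at 4.60, 14.3 and 10.5 in Tbx18, with a 95% interval from -1.34 to 1.38.

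Of the 8 macrophage markers in the table none was at 0 in every library and 3 were called higher (Cd68, Csf1r and Mrc1). This was 37.5%, beside 22.5% of all genes tested. Their summed level was 1244 to 2283 in GFP and 1611 to 2208 in Tbx18. Cd68, a lysosomal protein of macrophages, was at 105, 222 and 158 in GFP and at 216, 269 and 274 in Tbx18. Lyz2, lysozyme, was not called and lay at 467, 900.3 and 525 in GFP and 406, 626 and 525 in Tbx18. Within GFP all 8 markers were highest in replicate 2, as Mmp12 was; 3 of them (Csf1r, Ptprc and Cd14) were lowest in replicate 3, as Mmp12 was, and 5 in replicate 1. None of 6 neutrophil markers could be tested: Mpo and Elane were at 0 in every library, and S100a8, S100a9, Camp and Ngp had at most 11 reads in any library. Their summed level was 4.94 to 17.3 in GFP and 2.05 to 14.9 in Tbx18, and Mmp8, the neutrophil collagenase, was at 0. The part of macrophages or neutrophils in the values of Mmp12 and Mmp9 was not tested.

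**Figure D3:**
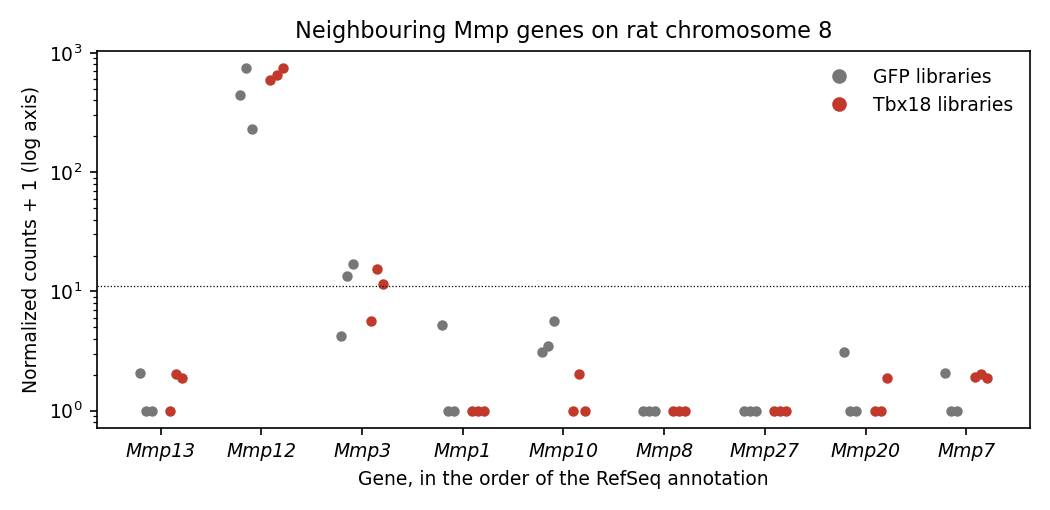
Normalized counts plus 1 (y axis, log scale) of the 9 neighbouring Mmp genes in annotation order (x axis), 3 GFP libraries in grey and 3 Tbx18 libraries in red; the dotted line is at 10 counts. Mmp12 stands at 230.1 to 747 counts, Mmp3 lies around the line, and the other 7 genes are below 5 counts.

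Among the inhibitors, Timp2 was the member called higher, Timp1 and Timp3 were not called, and Timp4 was too low to test. Timp2 encodes an inhibitor that also joins MMP14 to pro-MMP2 during activation. It was at 3535, 3327 and 2649.9 normalized counts in GFP and at 5590.1, 5012 and 5946 in Tbx18. The groups did not overlap and the mean rose 1.74-fold from 3171 ± 463 to 5516 ± 471 (SD, n = 3; limma log2 fold change 0.81, SE 0.12, adjusted p = 0.000476). Timp1, a broad inhibitor with weak action on membrane-anchored MMPs, was at 3329, 4119.8 and 4794 in GFP and at 4856, 5239.8 and 4959 in Tbx18. Every Tbx18 library was above every GFP library, by a narrow margin, and the test was missed (limma log2 fold change 0.31, SE 0.12, adjusted p = 0.0613, from 0.00235 to 0.170 over the alternatives). It was called with equal recovered reads, with upper-quartile scaling, with a replicate block (adjusted p = 0.0333) and without GFP replicate 3.

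Timp3, the matrix-bound inhibitor that also acts on ADAM17 and ADAMTS enzymes, was at 1687, 1426 and 1388 in GFP and at 1430.4, 1420.1 and 1619 in Tbx18. The groups overlapped, with a log2 fold change of -0.01 and a 95% interval from -0.23 to 0.22. Timp4, known for its expression in the adult heart, was at 7.45, 9.88 and 5.75 in GFP and at 0.920, 9.22 and 5.27 in Tbx18, too few counts to compare.

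Ratios of enzyme to inhibitor counts were taken within each library. The ratio of Mmp14 to Timp2 normalized counts was 0.698, 0.619 and 0.840 in the GFP libraries and 1.23, 1.24 and 1.25 in the Tbx18 libraries, a difference of 0.80 on the log2 scale with no overlap. Gene lengths cancel in the change of such a ratio but not in its level. For Mmp2 to Timp2 the ratios were 0.811, 1.01 and 0.964 in GFP and 1.05, 1.05 and 1.07 in Tbx18, a log2 difference of 0.19. For Adam17 to Timp3 they were 0.872, 0.950 and 1.12 in GFP and 1.07, 1.11 and 0.900 in Tbx18, with overlap and a log2 difference of 0.07. For Timp2 to Timp1 they were 1.06, 0.808 and 0.553 in GFP and 1.15, 0.957 and 1.20 in Tbx18, and the groups overlapped. With 3 libraries against 3, a two-sided exact permutation test cannot give a p under 0.1, which was its value for the first 2 ratios (0.133 adjusted over the 12 pairs computed); for Adam17 to Timp3 the exact p was 0.8 (adjusted 0.873) and for Timp2 to Timp1 it was 0.2 (adjusted 0.24). Pairs were chosen by known relation or position after their values had been seen, so the ratios and their p-values describe these libraries and give the calls no separate support.

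**Figure D4:**
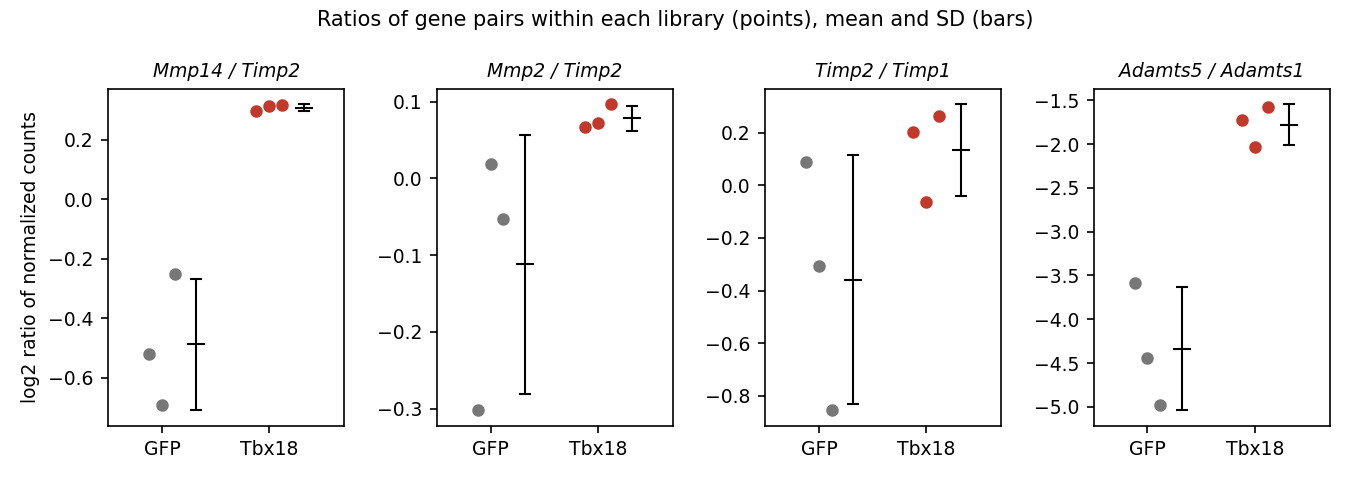
Log2 ratio of the normalized counts of 2 genes within each library (y axis), for 4 pairs, grey for GFP and red for Tbx18, with mean and SD as black bars. The Tbx18 libraries lie above the GFP libraries for Mmp14 to Timp2, Mmp2 to Timp2 and Adamts5 to Adamts1, and the groups overlap for Timp2 to Timp1.

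The ADAM genes moved both ways, with 4 higher (50%), 2 lower (25%) and 2 not called of 8 tested. The shares of all genes tested were 22.5% and 23.5%. Adam10 and Adam17 encode the main sheddases of the cell surface, the former cutting Notch receptors and N-cadherin and the latter releasing TNF and several ligands of the EGF receptor. Adam10 was at 1768, 1623 and 1790.4 in GFP and at 2105, 1939 and 2062 in Tbx18. The groups did not overlap, but the rise was 1.18-fold (limma log2 fold change 0.24, SE 0.08, adjusted p = 0.0360, up to 0.152 over the alternatives). Its call was lost without GFP replicate 2 and without any 1 of the Tbx18 libraries. Adam17 was at 1471, 1355 and 1549.9 in GFP and at 1527, 1578 and 1457 in Tbx18, with overlap and a 95% interval from -0.13 to 0.25. Adam9, another widely expressed sheddase, was also not called (log2 fold change 0.05, 95% interval -0.19 to 0.28).

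Adam15, whose product carries an integrin-binding sequence, was at 578, 592 and 545 in GFP and at 933, 834 and 876 in Tbx18. The libraries within each group lay close together and the rise was 1.54-fold (limma log2 fold change 0.62, SE 0.09, adjusted p = 0.000476). Adam11 and Adam23 encode members without protease activity, known from the nervous system. Adam11 was at 28.7, 28.4 and 26.5 in GFP and at 70.0, 59.4 and 65.0 in Tbx18, a 2.32-fold rise on few counts (limma log2 fold change 1.19, SE 0.20, adjusted p = 0.00121). Adam23 went from 92.5, 82.7 and 81.7 to 122, 109.6 and 148 (limma log2 fold change 0.55, SE 0.17, adjusted p = 0.0246). Its groups did not overlap, yet its call was lost when GFP replicate 2, GFP replicate 3, Tbx18 replicate 1 or Tbx18 replicate 3 was left out (adjusted p up to 0.103).

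Adam19, meltrin beta, which is needed for heart valve and septum formation in mice, was at 16601, 12609 and 12358 in GFP and at 8909, 9319 and 10160.0 in Tbx18. All Tbx18 libraries were below all GFP libraries, a 1.46-fold fall (limma log2 fold change -0.54, SE 0.12, adjusted p = 0.00535). With equal recovered reads the change was -0.27 and not called (adjusted p = 0.104). Adam1a, a relative of the sperm protein fertilin known from the testis, was at 134, 149 and 200.2 in GFP and at 71.8, 83.0 and 77.2 in Tbx18, a 2.08-fold fall (limma log2 fold change -1.03, SE 0.18, adjusted p = 0.00147). Adam1a has a close paralog, and how the counting treated shared reads is not given in the sources used here.

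ADAMTS genes that cut proteoglycans split by member, with Adamts5 higher, Adamts1 and Adamts15 lower, and Adamts4 and Adamts9 not called. Adamts5, aggrecanase-2, was at 96.8, 95.1 and 81.7 normalized counts in GFP and at 296, 212 and 361 in Tbx18. The lowest Tbx18 value was more than 2-fold above the highest GFP value, and the mean rose 3.18-fold (limma log2 fold change 1.63, SE 0.20, adjusted p = 0.000172). Adamts1, which cuts versican and aggrecan, was at 1162, 2059.9 and 2585 in GFP and at 983, 869.9 and 1074 in Tbx18. The GFP libraries were far apart, with replicate 1 close to the Tbx18 libraries, and the fall was 1.98-fold (limma log2 fold change -0.92, SE 0.24, adjusted p = 0.0114, up to 0.0482 over the alternatives).

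Adamts1 and Adamts5 are next to each other on rat chromosome 11 in the RefSeq annotation (GRCr8), with 0 protein-coding genes between them. The ratio of Adamts5 to Adamts1 was 0.0833, 0.0462 and 0.0316 in the GFP libraries and 0.301, 0.244 and 0.336 in the Tbx18 libraries. That was a log2 difference of 2.56 without overlap. The two-sided exact permutation p was 0.1, the smallest possible (0.133 adjusted over the 12 pairs). The pair was chosen after its values had been seen, and its genes were already called in opposite directions. The ratio therefore restates those calls and is no separate test. Adamts15 was at 523, 493 and 456 in GFP and at 310.2, 295 and 391 in Tbx18, a 1.48-fold fall (limma log2 fold change -0.57, SE 0.13, adjusted p = 0.00549). That call was lost with equal recovered reads (log2 fold change -0.31, adjusted p = 0.0794). Adamts4, aggrecanase-1, went from 112, 80.3 and 101 to 125, 119.9 and 175 and did not pass (limma log2 fold change 0.51, adjusted p = 0.0619, under 0.05 in 4 alternatives), and Adamts9 had a 95% interval from -0.32 to 0.37.

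Of the procollagen N-propeptidases, which trim the amino end of fibrillar procollagens, Adamts2 was called higher. It was at 1798, 1404 and 1527 in GFP and at 2305, 2306 and 2694 in Tbx18, with no overlap (1.54-fold, limma log2 fold change 0.63, SE 0.11, adjusted p = 0.00129). Adamts3 had a similar estimate at far fewer counts, 76.6, 38.3 and 67.9 in GFP and 87.4, 93.2 and 101 in Tbx18, and was not called (limma log2 fold change 0.67, SE 0.26, adjusted p = 0.0560). Its adjusted p was 0.0152 without GFP replicate 1, and it was also called with equal recovered reads, upper-quartile scaling and a replicate block (adjusted p = 0.0441). Adamts14 was at 199 to 299 in GFP and 218 to 286 in Tbx18 and was not called (95% interval -0.38 to 0.39).

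Adamts10, whose product binds fibrillin microfibrils, was at 1207, 1008 and 899 in GFP and at 1528, 1409.9 and 1643 in Tbx18. All Tbx18 libraries were higher, by 1.47-fold on average (limma log2 fold change 0.56, SE 0.12, adjusted p = 0.00342). Adamts7 and Adamts12, which cut cartilage oligomeric matrix protein, were called higher by 0.27 (limma adjusted p = 0.0482) and 0.44 (adjusted p = 0.0447). Both calls were near the threshold. That of Adamts12 was lost with TMM scaling and when GFP replicate 2 or Tbx18 replicate 1 or 3 was left out (adjusted p up to 0.148). That of Adamts7 was lost in 8 of 16 alternatives, among them DESeq2, a replicate block (adjusted p = 0.0761) and leaving out any 1 library except GFP replicate 1 (adjusted p up to 0.159). Adamts19, a gene linked to heart valve disease, was not called (log2 fold change 0.14, 95% interval -0.14 to 0.41).

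The ADAMTS-like genes, whose products lack a protease domain, went in different directions. Adamtsl3 was at 243, 188 and 207 in GFP and at 627, 478 and 669.7 in Tbx18. The groups were far apart, with a 2.78-fold rise (limma log2 fold change 1.47, SE 0.15, adjusted p = 7.89e-05). Adamtsl5, whose product associates with fibrillin microfibrils, was at 1382, 1488 and 1609.8 in GFP and at 1157, 1119 and 1002 in Tbx18, a 1.37-fold fall (limma log2 fold change -0.45, SE 0.09, adjusted p = 0.00361). With equal recovered reads its change was -0.19 and not called (adjusted p = 0.112). Adamtsl4, a fibrillin-1 binding protein, was at 518, 526 and 850.3 in GFP and at 719.8, 679 and 771 in Tbx18. GFP replicate 3 alone lay above the Tbx18 values; the gene was not called (limma log2 fold change 0.23, adjusted p = 0.303), and without that library it was called higher by 0.47 (adjusted p = 0.00689).

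The 23 genes that were not tested included 8 at 0 in every library: Adam3a, Adam6, Adam7, Adam26a, Adam34, Mmp8, Mmp27 and Mmp28. A count of 0 allows up to 3 reads in a library, or 2.63 to 3.70 normalized counts, by counting error only. Of the 12 untested Adam genes, most are known from the testis or epididymis, and the highest value among them was 11.1 normalized counts, for Adam4l1 in GFP replicate 2. Mmp10, stromelysin-2, was at 2.13, 2.47 and 4.60 in GFP and at 0, 1.02 and 0 in Tbx18. Mmp1, Mmp13, Mmp20, Mmp21, Mmp7 and Adamts18 had at most 4.26 normalized counts in any library.

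The T-box half-site GGTGTGA, searched on both strands, was in 0 of the 26 promoters of tested genes that the RefSeq table (GRCr8) holds, in 1 of the 42 promoters of all members it holds (2.38%), and in 3.81% of all 27457 promoters. The 1 match was Mmp8, on the minus strand within the stretch printed above. For the 26 the search says only that these letters are not in those 300-base windows. Among the same 26, TGANTCA was in those of Mmp3, Mmp12 and Adam19, the last at 169 bases before the start site. The 12 tested genes without an entry were Mmp2, Mmp9, Mmp14, Mmp16, Mmp17, Mmp19, Adam9, Adam11, Adam23, Adamts5, Adamts15 and Adamts19.

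Genes that act with these enzymes were taken from 6 lists. Of 7 tested members of the other metalloprotease list, 6 were called higher (85.7%) and 0 lower (median log2 fold change 0.91). The shares called among all genes tested were 22.5% higher and 23.5% lower. Bmp1, the procollagen C-proteinase, which trims the opposite end of procollagen from ADAMTS2, was at 2225, 1828 and 1882 in GFP and at 3315, 3130.2 and 3368 in Tbx18 (limma log2 fold change 0.73, adjusted p = 0.000229). Pappa, a protease of insulin-like growth factor binding proteins, went from 116, 44.5 and 102 to 188, 231 and 308 (limma log2 fold change 1.54, adjusted p = 0.00432). Mme, neprilysin, rose 2.82-fold, from 26.5 to 51.1 counts up to 99.4 to 144. The count of this list fell to 4 higher without Tbx18 replicate 1 or without Tbx18 replicate 3.

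Of 10 tested genes of the plasminogen system and the proprotein convertases, 4 were higher (40%) and 2 lower (20%, median 0.19). All genes tested held 22.5% and 23.5%. Pcsk6, which encodes the convertase PACE4, was at 2590.3, 2750.3 and 4004 in GFP and at 847, 779 and 877 in Tbx18. This was a 3.73-fold fall without overlap (limma log2 fold change -1.87, adjusted p = 1.99e-05). Furin, the convertase that activates MMP14 and many ADAMs, was at 4798, 3486 and 5048 in GFP and 5693, 5079 and 6160.1 in Tbx18 and was not called (adjusted p = 0.0588). The plasminogen activator genes Plau and Plat rose by 0.78 and 0.45 on the log2 scale (limma adjusted p = 0.0106 and 0.00746).

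Of 8 tested genes for other inhibitors, inducers and clearance receptors, 3 were higher (37.5%) and 2 lower (25%, median -0.02). For all genes tested it was 22.5% and 23.5%. Reck, a membrane-anchored inhibitor of MMPs, rose by 0.29 (limma adjusted p = 0.0270), and Lrp1, the endocytic receptor that clears MMPs and their inhibitors, by 0.93 (adjusted p = 0.00104). Bsg, which encodes the MMP inducer basigin, fell 1.68-fold from 28387, 36724 and 45958 to 21459, 22848 and 21649.7 (adjusted p = 0.00428). Spock2, a proteoglycan that interacts with membrane-type MMPs, rose by 1.47, and its relative Spock1 fell, with GFP values of 12.8, 3.70 and 48.3. The call of Spock1 rested on very few counts, and 1 gene of the list in place of 2 was called lower with a pseudocount of 5, with a minimum mean of 50 and when GFP replicate 3 or Tbx18 replicate 2 or 3 was left out.

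Of 6 tested trafficking partners of ADAM10 and ADAM17, 1 was higher and 1 lower (median 0.18). That is 16.7% each way, below the 22.5% and 23.5% of all genes tested. Frmd8, which stabilises the complex of ADAM17 with its carrier proteins, was at 644, 566 and 639 in GFP and 907, 958 and 816 in Tbx18 (limma log2 fold change 0.54, adjusted p = 0.00201). Rhbdf2, the carrier iRhom2, was called lower by -0.37 (adjusted p = 0.0394) and Rhbdf1, iRhom1, was not called (log2 fold change 0.23, adjusted p = 0.0567). With equal recovered reads 3 were higher and 0 lower, and 0 were lower also with upper-quartile scaling, with DESeq2, with no filter, with a replicate block, without GFP replicate 2 and without any 1 of the Tbx18 libraries.

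Of 12 tested genes for proteins shed by ADAMs, 3 were higher (25%) and 6 lower (50%, median -0.42). Over all genes tested 22.5% were higher and 23.5% lower. The higher 3 were the Notch pathway genes Notch1, Notch2 and Jag1: Jag1 went from 252, 144 and 155 to 679, 550.2 and 705 (limma log2 fold change 1.84, adjusted p = 0.000106). Among the lower 6 were 3 ligands of the EGF receptor. Hbegf was at 2235, 3580.2 and 5669 in GFP and at 1066, 1107 and 976 in Tbx18 (log2 fold change -1.77, adjusted p = 0.000542), Areg at 120.2, 312 and 559 and at 77.3, 100.4 and 67.6 (-1.76, adjusted p = 0.00977), and Tgfa fell by 0.97 (adjusted p = 0.000830). Hbegf, Areg and Adamts1 each had their lowest GFP value in replicate 1 and their highest in replicate 3. This order was not particular to them: Tgfa, Timp1, Adam1a, Adamtsl5 and Bsg also had it, while Mmp14 and Jag1, for example, did not. With equal recovered reads 5 of this list were higher and 4 lower.

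Of 13 tested ADAMTS substrates, 10 were called higher (76.9%, beside 22.5% of all genes tested) and 0 lower (median 0.91). Col1a2, at 2.30 to 26.3 counts, was among those not called. Vcan, versican, the substrate of ADAMTS1, ADAMTS5 and ADAMTS9, was at 5982, 3696 and 3943 in GFP and at 8649, 8419 and 8784 in Tbx18 (1.90-fold, limma log2 fold change 0.96, adjusted p = 0.000959). Acan, aggrecan, was not called (log2 fold change 0.39, adjusted p = 0.0749). Comp, the substrate of ADAMTS7 and ADAMTS12, rose 5.41-fold from 16.0, 22.2 and 11.5 to 83.8, 90.2 and 94.8 (log2 fold change 2.41, adjusted p = 0.000109). The procollagen genes Col1a1, Col3a1 and Col5a1 and the fibrillin genes Fbn1 and Fbn2 were also called higher; Col1a1 and Col3a1 are among the fibroblast markers as well.

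**Figure D5:**
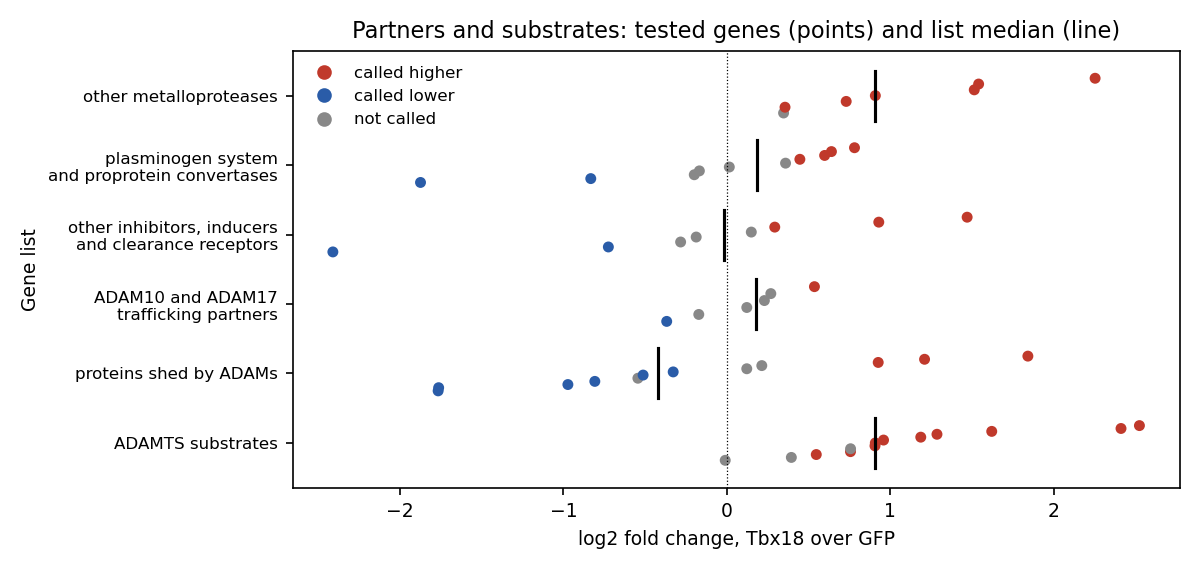
Log2 fold change (Tbx18 over GFP, x axis) of the tested genes of 6 lists (y axis), red where called higher, blue where called lower and grey where not called, with the median of each list as a black line. The medians run from -0.42 for proteins shed by ADAMs to 0.91 for ADAMTS substrates and for other metalloproteases.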

How the data were processed

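RNA-seq of 6 cultures was analysed, 3 per group. The deposited signal is a table of DESeq2-normalized counts, going by the name it was deposited under: the authors divided each library's gene counts by a size factor. Column headers also carry the words unpace and Control for both groups. The submitters' processing notes list, with no roles, STAR 2.4.0g1, HTSeq, DESeq2 1.10.1 and bcl2fastq 2.17.1.14. The sources used here do not give genome build, annotation or strand setting, which leaves overlapping and paralogous genes less certain. Per the labels' protocols, 100 ng of RNA went into a stranded poly(A) kit and 101 bp paired ends were sequenced. Every value was a whole multiple of its column's step within 0.01 reads (100% of values), so reads were recovered.

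limma 3.58.1 (R 4.3.3, intensity trend) was run on log2(value + 1) for genes with a mean of at least 10, without a block, with Benjamini-Hochberg adjustment over all 11230 genes. A fold is a ratio of group means, and a log2 fold change is on the log2(value + 1) scale. Among the 16 alternatives, edgeR 4.0.16 and DESeq2 1.42.0 used recovered reads. The fit was also run on simulated counts with far fewer changed genes than were called here and 1 spread for all genes. That run does not test the calls given here. Members and lists were chosen with earlier results of these data known. The rule for genes given in full took Timp1 to Timp4, Mmp2, Mmp9, Mmp14, Adam10 and Adam17, and up to 4 called genes per family and direction with the largest change; every other member could be named with its values. The 6 pathway lists held 73 symbols (68 in the table) and the 8 marker lists 57 (53 in the table). Promoters came from RefSeq (GRCr8), where 42 of 61 members matched. The values of 1 gene of the pathway lists are not reported here.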

Additional observations from a re-analysis of the deposited data

How the results depend on the processing

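Over 16 alternatives the number of genes called higher was 13 to 20 with 1 library left out and 16 to 21 under the other settings, except with equal recovered reads, where it was 28; the number called lower was 5 or 6, except 2 with equal recovered reads. Of the 17 genes called higher 13, and of the 5 called lower 2, kept their call under each alternative that tested them. A replicate block gave 19 higher and 5 lower. The labels do not say that a shared number marks a shared isolation, so the numbers were not taken as pairs. Same-numbered GFP and Tbx18 libraries deviated from their group means with correlations of -0.00474, 0.151 and 0.0165 for replicates 1, 2 and 3. The value for replicate 2 was the highest of any GFP and Tbx18 pair, and GFP replicate 1 correlated best with Tbx18 replicate 3 (0.113). These correlations do not settle whether the numbers mark pairs.

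No called gene changed sign. The 22 sign changes belonged to 7 genes that were not called, all with an interval across 0. Timp3 was at 0.26 with equal recovered reads, 0.0635 with upper-quartile scaling and 0.00507 with edgeR, and ran from -0.0686 to 0.0798 with 1 library left out. Mmp3 was at -0.0187 with a pseudocount of 5, -0.0757 with edgeR and -0.0954 with DESeq2, and ran from -0.60 to 0.43. DESeq2 put Mmp17 at -0.00520 and Adamts14 at -0.00292; with 1 library left out Mmp17 ran from -0.0850 to 0.14 and Adamts14 from -0.14 to 0.15. Leaving out 1 library gave Adamts9 -0.16 to 0.19, Adam9 -0.0300 to 0.15 and Mmp15 -0.0254 to 0.18. The cause was not tested. Depth limits the comparison of the 23 genes under 10 normalized counts and of Mmp3.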

Other observations

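The 61 genes together took 0.214 to 0.253% of the normalized total in GFP and 0.316 to 0.353% in Tbx18. Their summed counts were 46185 to 51038 in GFP and 55284 to 61396 in Tbx18. The normalized total itself was smaller in Tbx18, 17273631 to 17494656 beside 20141912 to 21563080 in GFP. Part of the rise in share therefore comes from the smaller total. The median SD of the log2 values of the 38 tested genes was 0.19 within GFP and 0.11 within Tbx18, beside 0.17 and 0.10 for all genes tested. Ratios of Mmp14 to Mmp2 were 0.860, 0.611 and 0.871 in GFP and 1.17, 1.18 and 1.16 in Tbx18, and those of Timp2 to Timp3 were 2.10, 2.33 and 1.91 in GFP and 3.91, 3.53 and 3.67 in Tbx18. Both pairs were looked at after their values had been seen.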
